A study of Homo sapiens with 24 samples.

Results

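The genes described here are 10 adhesion genes of leukocytes and marrow cells: the integrin subunit genes ITGA4, ITGB1, ITGAL and ITGB2, the intercellular adhesion molecule genes ICAM1, ICAM2 and ICAM3, and the surface glycoprotein genes SELPLG, CD44 and NCAM1. They were taken by symbol from the 25341 named genes measured, with the integrin subunit ITGB7 left out of the group, and all 10 were found. Of the 10, 9 reached a level of 1 TPM, the length-scaled unit of transcripts per M transcripts, in at least 3 libraries and were tested among the 15113 genes that did so, and NCAM1 did not. RNA sequencing of total RNA covered 4 lines of multiple myeloma in 24 libraries, 3 with siIRF4 and 3 with CTRL in each line. The lines were MM1R, its glucocorticoid-sensitive relative MM1S from the same donor's myeloma, KMS-12-BM from bone marrow, and KMS-12-PE from the pleural effusion of the KMS-12 donor. All were grown in RPMI medium with fetal bovine serum. siIRF4 cells received a pool of siRNAs against the transcription factor gene IRF4 by electroporation and were taken at 48 hours, while CTRL cells carry the labels DMSO and 0 hours. No control siRNA is named, so the knock down, siRNA delivery, electroporation, DMSO and time in culture cannot be told apart. Whether the replicates were cultured separately is not stated in the labels, and p-values then measure only the spread between these libraries.

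Integrins are pairs of an alpha and a beta chain. The ITGA4 chain pairs with ITGB1 to form VLA-4, through which myeloma cells hold to VCAM1 and fibronectin of the marrow stroma, or with ITGB7. The ITGAL chain pairs with ITGB2 to form LFA-1, the leukocyte receptor of the ICAM proteins. SELPLG encodes PSGL-1, a mucin that selectins bind once its sugars are fitted, CD44 binds hyaluronan, and NCAM1 encodes CD56, a homophilic adhesion molecule often found on malignant plasma cells. IRF4 is a transcription factor on which plasma cells and myeloma cells depend.

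IRF4 transcripts were lower in siIRF4 libraries than in CTRL libraries of each line. Their mean level fell by 52.6% in KMS-12-PE, fell by 50.4% in MM1S, fell by 38.4% in KMS-12-BM and fell by 23.5% in MM1R. Libraries held 17.3 to 27.4 M reads, recovered from the TPM values, and libraries of the same group had correlations across genes of 0.993 to 0.996. The mean of each of the 8 plasma cell markers examined was at least 1 TPM in every group, though their levels differed widely between lines. CTRL cells of KMS-12-BM had 6.05 TPM of SDC1 and 1.76 TPM of SLAMF7, against 738 and 597 TPM in those of MM1R. The epithelial marker EPCAM was at 146 TPM in CTRL cells of KMS-12-BM and 129 TPM in those of KMS-12-PE. MM1S and KMS-12-PE also held transcripts of stromal, myeloid and keratinocyte genes, such as DCN, S100A9 and KRT5, whose sums are given after the changes of the adhesion genes. A single library stood apart at ITGB7, a gene with very high levels in the MM1 lines. KMS-12-BM siIRF4 replicate 1 had 186.0 TPM of ITGB7, against 64.1 and 58.1 TPM in the other siIRF4 replicates and 82.3 to 93.2 TPM in the CTRL libraries. As a share of the mean MM1 level this is 1.45% in that library, 0.50% and 0.45% in the other siIRF4 replicates and 0.64% to 0.73% in the CTRL libraries. In KMS-12-PE the share was 0.07% to 0.083% in siIRF4 libraries and 0.42% to 0.59% in CTRL libraries.

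In CTRL cells the lines differed most in the LFA-1 beta chain and least in ICAM3. Of the 9 genes tested, all 9 differed between KMS-12-BM and KMS-12-PE at a limma adjusted p under 0.05, where 77.3% of all genes did. All 9 also differed between MM1R and KMS-12-BM (81.5% of all genes), MM1R and KMS-12-PE (81.9%) and MM1S and KMS-12-BM (83.5%). Fewer differed between MM1S and KMS-12-PE, 7 of 9 with 79.3% of all genes, and between MM1R and MM1S, 6 of 9 with 57.3% of all genes. These shares are near the background of all genes.

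**Figure D1:**
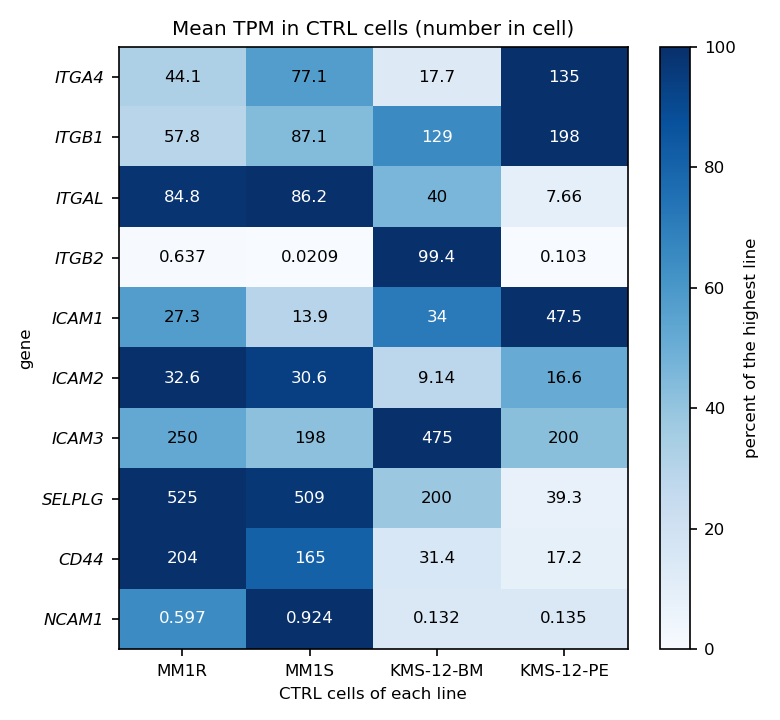
Mean TPM of each adhesion gene in CTRL cells of the 4 lines (n = 3 libraries each), with the shade giving the percent of the gene's highest line. ITGB2 has 99.4 TPM in KMS-12-BM and less than 1 TPM in each other line, while ITGA4 and ITGB1 are highest in KMS-12-PE and SELPLG and CD44 in the MM1 lines.

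The VLA-4 chains were both highest in KMS-12-PE. ITGA4 averaged 135 ± 0.493 TPM there, 77.1 ± 3.97 TPM in MM1S, 44.1 ± 2.72 TPM in MM1R and 17.7 ± 0.569 TPM in KMS-12-BM (SD, n = 3 each). Each step of that order passed the test. The widest gap was that of KMS-12-BM against KMS-12-PE, with a log2(TPM + 1) difference of -2.86 ± 0.056 (SE, limma adjusted p = 2.1e-21). ITGB1, the partner chain, had another order. It averaged 198 ± 3.48 TPM in KMS-12-PE, 129 ± 2.28 TPM in KMS-12-BM, 87.1 ± 4.81 TPM in MM1S and 57.8 ± 2.90 TPM in MM1R, and again each step passed the test. TPM is scaled by length, so the levels of both chains can be set side by side: ITGA4 was at 17.7 TPM beside 129 TPM of ITGB1 in KMS-12-BM, and at 77.1 beside 87.1 TPM in MM1S.

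The LFA-1 chains were not found together in 3 of the 4 lines. ITGAL averaged 86.2 ± 3.01 TPM in MM1S, 84.8 ± 3.85 TPM in MM1R, 40.04 ± 0.646 TPM in KMS-12-BM and 7.66 ± 0.696 TPM in KMS-12-PE. MM1R and MM1S did not differ at this gene beyond their spread (log2 difference -0.02, 95% interval -0.13 to 0.08, limma adjusted p = 0.73), and the other steps passed the test. ITGB2, the only beta chain known to pair with the ITGAL chain, averaged 99.4 ± 3.78 TPM in CTRL cells of KMS-12-BM. In CTRL cells of MM1R it had 0.439, 0.342 and 1.13 TPM, in KMS-12-PE 0.0681, 0.175 and 0.0672 TPM and in MM1S 0.0306, 0 and 0.0322 TPM (replicates 1, 2 and 3, as in all lists of values here). The MM1S values stand for 2 reads in all, a count that does not tell a trace from none. MM1R and MM1S thus had ITGAL transcripts at 80.4 to 89.7 TPM with ITGB2 at no more than 1.13 TPM. The antisense gene ITGB2-AS1 overlaps ITGB2, and the strand setting of the counting is not given. It averaged 2.98 ± 0.375 TPM in CTRL cells of KMS-12-BM and at most 0.12 TPM in the other lines. Whether RNA of KMS-12-BM in other libraries has a part in the values under 1.2 TPM was not tested.

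Among the 3 ICAM genes, ICAM3 was the most abundant in each line. ICAM3, a ligand of LFA-1 on resting leukocytes, averaged 475 ± 8.88 TPM in KMS-12-BM, 250.1 ± 3.64 TPM in MM1R, 200.3 ± 8.45 TPM in KMS-12-PE and 198 ± 15.9 TPM in MM1S. The last pair did not differ beyond their spread (95% interval of the log2 difference, MM1S minus KMS-12-PE, -0.11 to 0.07, limma adjusted p = 0.67). ICAM1, the inducible ligand of LFA-1, averaged 47.5 ± 4.44 TPM in KMS-12-PE, 33.96 ± 1.42 TPM in KMS-12-BM, 27.3 ± 1.001 TPM in MM1R and 13.9 ± 1.14 TPM in MM1S, and each step passed the test. ICAM2, a ligand known for its steady expression on endothelium and leukocytes, averaged 32.6 ± 1.90 TPM in MM1R, 30.6 ± 2.72 TPM in MM1S, 16.6 ± 1.12 TPM in KMS-12-PE and 9.14 ± 0.380 TPM in KMS-12-BM. MM1R and MM1S did not differ at ICAM2 beyond their spread (95% interval -0.05 to 0.23, limma adjusted p = 0.26). The endothelial markers VWF, CDH5, KDR, TEK and EMCN summed to at most 0.67 TPM in any library.

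SELPLG and CD44 were higher in both MM1 lines than in both KMS-12 lines. SELPLG averaged 525 ± 6.31 TPM in MM1R, 509 ± 15.4 TPM in MM1S, 200.1 ± 5.46 TPM in KMS-12-BM and 39.3 ± 1.67 TPM in KMS-12-PE, a range of 13.3-fold. The MM1 lines did not differ at SELPLG beyond their spread (95% interval of the log2 difference -0.04 to 0.13, limma adjusted p = 0.39). CD44 averaged 204 ± 10.1 TPM in MM1R, 165 ± 7.81 TPM in MM1S, 31.4 ± 0.483 TPM in KMS-12-BM and 17.2 ± 0.534 TPM in KMS-12-PE, a range of 11.8-fold in which each step passed the test. NCAM1 was at the edge of detection, with at most 1.14 TPM in any library. Its CTRL libraries held 0.560, 0.504 and 0.727 TPM in MM1R, 1.14, 0.838 and 0.794 TPM in MM1S, 0.223, 0.130 and 0.0432 TPM in KMS-12-BM and 0.0879, 0.181 and 0.136 TPM in KMS-12-PE.

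With siIRF4, ITGAL and ICAM3 rose in all 4 lines, ICAM1 rose in 3, and ITGA4 fell in 3. SELPLG fell in KMS-12-PE and, less, in KMS-12-BM, and ICAM2 moved in opposite directions in the 2 KMS-12 lines. ITGB1 and CD44 each passed the test in a single line, with changes of at most 0.22 on the log2(TPM + 1) scale. Averaged over the 4 lines, 4 of the 9 genes rose (ITGAL, ICAM3, ICAM1 and CD44), 2 fell (ITGA4 and SELPLG) and 3 did not pass the test. Of all genes tested, 59.6% passed on average, 33.1% higher and 26.5% lower. The median change of the 9 was 0.06, beside 0.02 for all genes.

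In MM1R, 4 of the 9 genes rose and 1 fell, where 46.2% of all genes passed, 25% higher and 21.2% lower. In MM1S, 4 rose and 1 fell, where 50.3% of all genes passed, 29.1% higher and 21.1% lower. In KMS-12-BM, 2 rose and 2 fell, where 17.5% of all genes passed, 11.4% higher and 6.09% lower. In KMS-12-PE, 5 rose and 2 fell, where 38.1% of all genes passed, 15.9% higher and 22.2% lower. The median change in KMS-12-PE was 0.39 for the 9 genes beside -0.02 for all genes. The medians of the 9 in MM1R, MM1S and KMS-12-BM were 0.08, 0.08 and 0.06, beside 0.03, 0.04 and 0.04 for all genes. The count of 4 in KMS-12-BM fell to 2 without its siIRF4 replicate 3, its CTRL replicate 2 or its CTRL replicate 3.

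**Figure D2:**
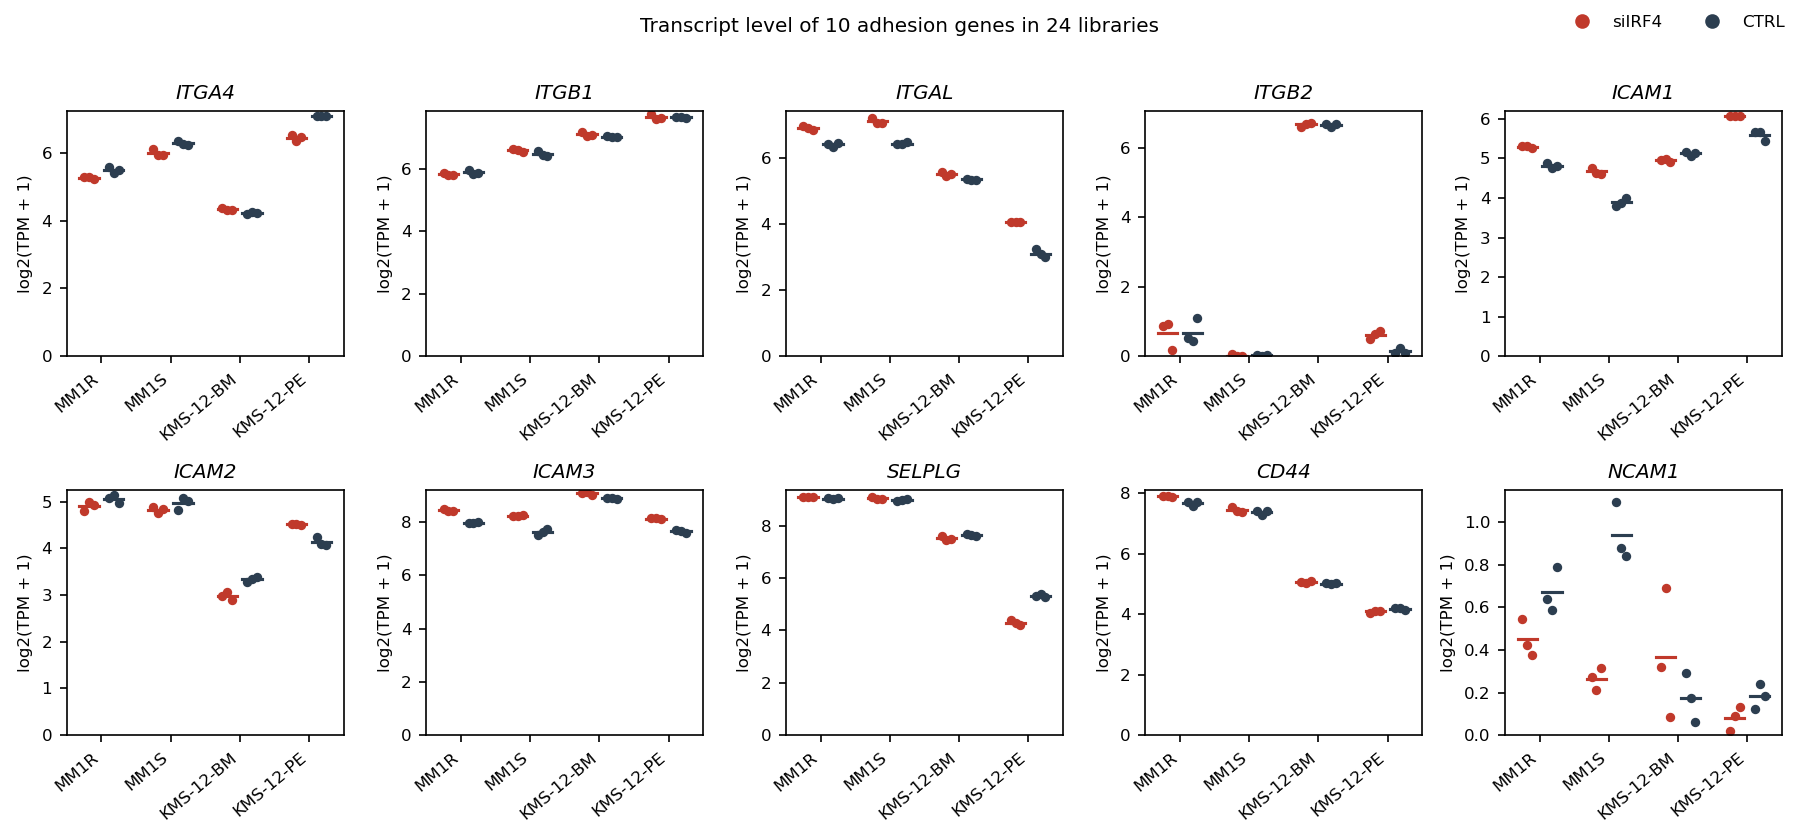
Level of each adhesion gene on the log2(TPM + 1) scale in the 24 libraries, siIRF4 left of CTRL in each line, with a point per library and a bar at the mean of 3. ITGAL and ICAM3 points of siIRF4 libraries lie above those of CTRL libraries in each line, and the vertical scale of NCAM1 ends near 1.1.

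The alpha chain of VLA-4 fell in 3 lines and its beta chain fell in none by the test. In KMS-12-PE, ITGA4 had 91.8, 80.4 and 88.4 TPM in siIRF4 libraries, against 135, 135 and 134 TPM in CTRL libraries. In MM1S it had 68.3, 60.4 and 60.4 TPM with siIRF4, against 81.5, 76.3 and 73.7 TPM in CTRL, and in MM1R 38.5, 38.1 and 36.3 TPM with siIRF4, against 46.6, 41.2 and 44.5 TPM in CTRL. The groups did not overlap in any of these lines. The log2(TPM + 1) change was -0.63 ± 0.056 in KMS-12-PE (SE, limma adjusted p = 1.5e-08), -0.29 ± 0.056 in MM1S (adjusted p = 0.00018) and -0.22 ± 0.056 in MM1R (adjusted p = 0.0024). KMS-12-BM differed from this. It had 19.96, 19.1 and 18.9 TPM in siIRF4 libraries and 17.2, 18.3 and 17.6 TPM in CTRL libraries, a change of 0.12 ± 0.056 that did not pass the test (adjusted p = 0.14). The change in KMS-12-PE minus that in KMS-12-BM was -0.75 ± 0.079 (adjusted p = 7.4e-07). The gene CERKL overlaps ITGA4 and averaged 3.13 TPM over the 24 libraries.

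ITGB1 stayed within a narrow range. Its changes were 0.13 ± 0.048 in MM1S, -0.00 ± 0.048 in KMS-12-PE, -0.06 ± 0.048 in MM1R and 0.08 ± 0.048 in KMS-12-BM, and only that of MM1S passed the test (limma adjusted p = 0.031). There ITGB1 had 97.1, 95.9 and 92.3 TPM in siIRF4 libraries and 92.6, 85.1 and 83.6 TPM in CTRL libraries, and the lowest siIRF4 library lay just under the highest CTRL library. That call was lost when any of 4 MM1S libraries was left out (highest adjusted p = 0.14), with median-of-ratios scaling (0.071) and with separate fits (0.064). ITGB7, the other beta chain of ITGA4, is very abundant in the MM1 lines, at 17935 TPM in siIRF4 and 15344 TPM in CTRL cells of MM1R. In KMS-12-PE it fell to 10.1, 8.99 and 10.6 TPM in siIRF4 libraries, against 55.6, 53.7 and 75.6 TPM in CTRL libraries.

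The promoter of ITGA4 is shown as the gene of the group that fell in the most lines. The letters are the 250 bases before the start of the RefSeq entry (build GRCh38.p14, + strand, chr2:181457136-181457385), with any match to the motifs searched in capitals.
ITGA4: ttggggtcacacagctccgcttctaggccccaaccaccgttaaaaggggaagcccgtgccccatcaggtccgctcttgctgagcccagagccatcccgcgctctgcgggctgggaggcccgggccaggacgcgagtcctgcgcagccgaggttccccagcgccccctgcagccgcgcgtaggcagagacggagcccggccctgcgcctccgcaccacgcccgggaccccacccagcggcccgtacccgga
The motifs searched on both strands were the ISRE core (GAAA, any 2 bases, GAAA) and the EICE (GGAA, any 2 bases, GAAA), which IRF factors bind alone or with an ETS partner, the AP-1 site TGANTCA, the PU.1-type ETS site GAGGAAGT, the kappaB consensus and the TATA box TATAAA. No letters of the ITGA4 window match any of them. Among 35116 RefSeq promoter windows of the same length, 3.02% hold the ISRE core, 2.41% the EICE, 6.57% the AP-1 site, 2.17% the PU.1-type site, 9.96% the kappaB consensus and 10.72% the TATA box. The ISRE core shares the letters GAAA with the EICE, so a sequence can match both. Windows were found for 5 of the 10 genes (ITGA4, ITGB1, CD44, ICAM1 and ICAM3), and none of the 5 holds the ISRE core, the EICE, the AP-1 site or the PU.1-type site.

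The alpha chain of LFA-1 rose in all 4 lines. In KMS-12-PE, ITGAL had 15.9, 15.8 and 15.9 TPM in siIRF4 libraries, against 8.41, 7.54 and 7.03 TPM in CTRL libraries, a ratio of means of 2.07. In MM1S it had 147, 133 and 133 TPM in siIRF4 libraries, against 84.4, 84.5 and 89.7 TPM in CTRL libraries, a ratio of 1.60. In MM1R it had 124, 119 and 116 TPM in siIRF4 libraries, against 86.1, 80.4 and 87.8 TPM in CTRL libraries, a ratio of 1.41. The groups did not overlap in any line, KMS-12-BM included. The log2(TPM + 1) change was 0.97 ± 0.052 in KMS-12-PE (SE, limma adjusted p = 5.4e-12), 0.67 ± 0.052 in MM1S (1.0e-09), 0.49 ± 0.052 in MM1R (1.2e-07) and 0.57 ± 0.026 on average (1.6e-13). KMS-12-BM, the line with ITGB2, had the smallest change. ITGAL had 46.7, 43.5 and 45.3 TPM there in siIRF4 libraries and 40.8, 39.8 and 39.6 TPM in CTRL libraries, a change of 0.17 ± 0.052 (adjusted p = 0.029). That call did not pass the test without siIRF4 replicate 1, the library that stood apart at ITGB7 (0.15, adjusted p = 0.12), nor when any of 3 other KMS-12-BM libraries was left out. KMS-12-PE minus KMS-12-BM, the difference of the changes was 0.80 ± 0.074 (adjusted p = 1.1e-07).

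ITGB2 stayed near 100 TPM in KMS-12-BM and near 0 elsewhere. KMS-12-BM had 96.7, 102 and 104 TPM in siIRF4 libraries and 102, 95.01 and 102 TPM in CTRL libraries, and the groups overlapped (95% interval of the log2 change -0.29 to 0.34, limma adjusted p = 0.96). That interval rests on a spread shared by all 8 groups, those near 0 TPM included. Over the alternatives the KMS-12-BM change lay between -0.02 and 0.05. In KMS-12-PE ITGB2 rose, to 0.409, 0.545 and 0.638 TPM in siIRF4 libraries, against 0.0681, 0.175 and 0.0672 TPM in CTRL libraries. The siIRF4 values stand for 50 reads in all and the CTRL values for 9, and the change was 0.47 ± 0.15 (adjusted p = 0.018). The call did not hold without siIRF4 replicate 3, CTRL replicate 1 or CTRL replicate 3 (highest adjusted p = 0.069). All 6 KMS-12-PE libraries were under 1 TPM.

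The ICAM genes did not move as a group. ICAM3 rose in all 4 lines. In MM1S, ICAM3 had 299, 296 and 303 TPM in siIRF4 libraries, against 182, 198 and 213 TPM in CTRL libraries. In MM1R it had 356, 344 and 343 TPM in siIRF4 libraries, against 249, 248 and 254 TPM in CTRL libraries. In KMS-12-PE it had 279.5, 281 and 277 TPM in siIRF4 libraries, against 207, 203 and 191 TPM in CTRL libraries. No siIRF4 library of these lines, or of KMS-12-BM, lay among the CTRL libraries of its line. The change was 0.60 ± 0.043 in MM1S (limma adjusted p = 3.8e-10), 0.47 ± 0.043 in MM1R (1.5e-08), 0.48 ± 0.043 in KMS-12-PE (2.1e-08) and 0.43 ± 0.022 on average (7.5e-13). In KMS-12-BM, where CTRL cells had the most ICAM3, it had 548, 554 and 513 TPM in siIRF4 libraries and 482, 477 and 465 TPM in CTRL libraries, a change of 0.18 ± 0.043 (adjusted p = 0.0056).

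ICAM1 rose in MM1S, MM1R and KMS-12-PE. In MM1S, where it was lowest, ICAM1 had 26.3, 23.9 and 23.4 TPM in siIRF4 libraries, against 12.9, 13.8 and 15.1 TPM in CTRL libraries. In MM1R it had 38.8, 39.1 and 37.6 TPM in siIRF4 libraries, against 28.3, 26.3 and 27.3 TPM in CTRL libraries, and in KMS-12-PE 66.2, 66.5 and 66.7 TPM with siIRF4, against 50.1, 50.1 and 42.4 TPM in CTRL. The groups were apart in each of the 3. The change was 0.77 ± 0.061 in MM1S (limma adjusted p = 1.3e-09), 0.48 ± 0.061 in MM1R (1.5e-06) and 0.48 ± 0.061 in KMS-12-PE (2.6e-06). KMS-12-BM had 30.3, 30.7 and 28.99 TPM in siIRF4 libraries and 35.2, 32.4 and 34.3 TPM in CTRL libraries, with every siIRF4 library the lower. Its change of -0.17 ± 0.061 did not pass the test (adjusted p = 0.055), and passed it with median-of-ratios scaling (-0.21, 0.0059), on recovered reads (-0.18, 0.012) and with a mean of at least 5 TPM (0.042). The difference between KMS-12-PE and KMS-12-BM was 0.65 ± 0.087 (adjusted p = 1.5e-05), and that between the KMS-12 lines and the MM1 lines -0.48 ± 0.061 (1.9e-06).

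ICAM2 fell in KMS-12-BM and rose in KMS-12-PE. KMS-12-BM had 6.86, 7.33 and 6.41 TPM in siIRF4 libraries, against 8.74, 9.17 and 9.50 TPM in CTRL libraries, a change of -0.37 ± 0.068 (limma adjusted p = 0.00056). KMS-12-PE had 22.2, 21.95 and 21.7 TPM in siIRF4 libraries, against 17.9, 16.2 and 15.7 TPM in CTRL libraries, a change of 0.39 ± 0.068 (0.00011). The groups did not overlap in either line, and the effects differed by 0.75 ± 0.096 (adjusted p = 8.6e-06). In the MM1 lines the groups overlapped, with changes of -0.16 ± 0.068 in MM1R (adjusted p = 0.054) and -0.14 ± 0.068 in MM1S (0.089) that did not pass the test. Both passed it with median-of-ratios scaling (adjusted p = 0.034 and 0.028). PRR29 overlaps ICAM2 and averaged 2.20 TPM over the 24 libraries.

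**Figure D3:**
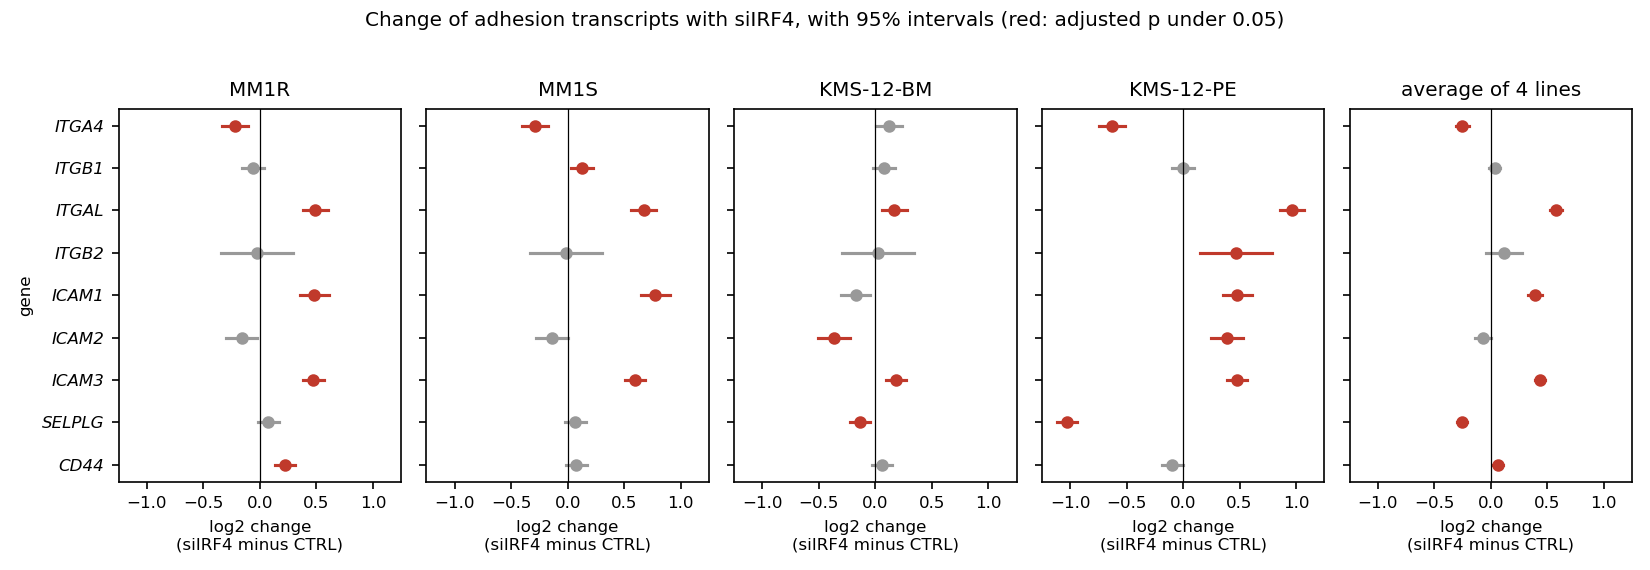
Change of the 9 tested genes with siIRF4 on the log2(TPM + 1) scale, siIRF4 minus CTRL, in each line and averaged over the 4 lines, with 95% intervals from limma and red where the adjusted p is under 0.05. ITGAL and ICAM3 lie to the right in each panel, and ICAM2 lies on opposite sides of 0 in the KMS-12 panels.

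The promoters of ICAM1 and ICAM3 are shown because these genes rose together in 3 lines. Each is the 250 bases before the start of its RefSeq entry in build GRCh38.p14, chr19:10270870-10271119 on the + strand for ICAM1 and chr19:10339625-10339874, the most upstream of 3 entries, on the - strand for ICAM3, with matches in capitals.
ICAM1: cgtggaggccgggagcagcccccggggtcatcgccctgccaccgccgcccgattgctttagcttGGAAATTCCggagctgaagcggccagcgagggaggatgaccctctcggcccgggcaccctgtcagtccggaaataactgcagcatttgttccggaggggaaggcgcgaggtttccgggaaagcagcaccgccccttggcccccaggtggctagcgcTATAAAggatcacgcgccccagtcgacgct
ICAM3: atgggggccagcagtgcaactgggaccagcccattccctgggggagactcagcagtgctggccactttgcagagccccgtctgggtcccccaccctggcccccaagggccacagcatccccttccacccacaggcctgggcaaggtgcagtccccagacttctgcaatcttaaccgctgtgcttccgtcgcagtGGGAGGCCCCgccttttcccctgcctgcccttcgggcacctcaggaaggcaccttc
The ICAM1 window holds TATAAA, which ends 25 bases before the start, and GGAAATTCC, which ends 178 bases before it and is the kind of kappaB site that NF-kappaB proteins are known to bind in this promoter. GGAAATTCC was searched for after the sequence had been seen, and 0.41% of the windows hold it. The ICAM3 window holds a kappaB consensus match, GGGAGGCCCC, that ends 47 bases before the start. The same letters lie in 1 of the ITGB1 windows, which is not printed. Matches are a description of the letters and not sites shown to be in use.

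SELPLG had its largest fall in KMS-12-PE. It had 20.1, 18.7 and 17.6 TPM in siIRF4 libraries, against 39.4, 41.00 and 37.7 TPM in CTRL libraries, a ratio of 0.477 and a change of -1.03 ± 0.043 (limma adjusted p = 1.0e-13). In KMS-12-BM it had 192, 177 and 178 TPM in siIRF4 libraries and 206, 198 and 196 TPM in CTRL libraries, with the groups apart and a change of -0.13 ± 0.043 (adjusted p = 0.036). The KMS-12-BM call was lost when any of 5 of its 6 libraries was left out (highest adjusted p = 0.14). It was also lost with no filter on low values (0.052), with a prior without trend (0.057) and with separate fits (0.076). The MM1 lines had the gene at 494 TPM or more in every library. MM1R had 549, 556 and 555 TPM in siIRF4 libraries and 529, 518 and 528 TPM in CTRL libraries, a change of 0.08 ± 0.043 (adjusted p = 0.16), and in MM1S the change was 0.07 ± 0.043 (0.2). The effect in the KMS-12 lines minus that in the MM1 lines was -0.65 ± 0.043 (adjusted p = 1.6e-10), and in KMS-12-PE minus KMS-12-BM it was -0.90 ± 0.061 (1.1e-09).

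CD44 rose in MM1R, where it had 241, 239 and 234 TPM in siIRF4 libraries, against 209.7, 193 and 210.3 TPM in CTRL libraries, with no overlap and a change of 0.22 ± 0.044 (limma adjusted p = 0.00029). In the other lines its changes were 0.08 ± 0.044 in MM1S (adjusted p = 0.17), -0.10 ± 0.044 in KMS-12-PE (0.093) and 0.06 ± 0.044 in KMS-12-BM (0.42), none past the test. The average over lines was 0.06 ± 0.022 (0.015), and the KMS-12 lines differed from the MM1 lines by -0.17 ± 0.044 (0.0037). NCAM1 was too low for the main test. In MM1S it had 0.209, 0.157 and 0.243 TPM in siIRF4 libraries, against 1.14, 0.838 and 0.794 TPM in CTRL libraries, which stand for 46 and 222 reads in all, and the groups did not overlap. When no filter on low values was set, NCAM1 changed by -0.67 in MM1S (limma adjusted p = 5.9e-05), -0.22 in MM1R (0.14), -0.10 in KMS-12-PE (0.67) and 0.19 in KMS-12-BM (0.34).

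Sums of markers of other cell types differed between siIRF4 and CTRL libraries in some lines and overlapped in others. In KMS-12-PE the 6 myeloid markers summed to 36.3 to 51.5 TPM in siIRF4 libraries and 147 to 183 TPM in CTRL libraries, with 1 of them at 0 in siIRF4 libraries and S100A9 the highest. The 5 stromal markers summed to 19.1 to 26.7 TPM in siIRF4 and 56.2 to 85.6 TPM in CTRL libraries, and the 5 T cell markers, led by CD3E, to 37.9 to 43.8 TPM in siIRF4 and 20.7 to 23.2 TPM in CTRL libraries. In MM1R the myeloid sum was 93.1 to 99.7 TPM in siIRF4 and 22.6 to 27.5 TPM in CTRL libraries, nearly all of it S100A9. The 5 epithelial markers of KMS-12-PE summed to 164 to 185 TPM in siIRF4 and 226 to 246 TPM in CTRL libraries. Its keratins KRT5 and KRT14 averaged 17.4 and 15.7 TPM in siIRF4, against 55.8 and 52.3 TPM in CTRL. EPCAM, the highest of the 5, averaged 139 TPM in siIRF4 and 129 TPM in CTRL. In MM1S the epithelial sum was 39.0 to 100.4 TPM in siIRF4 and 89.7 to 127 TPM in CTRL libraries. Its stromal sum was 61.8 to 81.8 TPM in siIRF4 and 55.5 to 122 TPM in CTRL libraries. Its myeloid sum was 63.4 to 169 TPM in siIRF4 and 106 to 173 TPM in CTRL libraries, and the groups overlapped in all of these MM1S sums. The part of such RNA in the changes of the adhesion genes was not tested, and bulk RNA cannot tell fewer cells of a type from less RNA per cell. In MM1S the T cell markers summed to 8.46 to 12.4 TPM in siIRF4 and 5.09 to 6.41 TPM in CTRL libraries, and the 5 erythroid markers, led by HBB, to 5.62 to 7.18 TPM in siIRF4 and 8.58 to 13.0 TPM in CTRL libraries. The sum of the 8 plasma cell markers, which include the siRNA target IRF4, was lower with siIRF4 in every line, with no overlap. The sum was 1564 to 1580.5 TPM in siIRF4 and 2089 to 2109 TPM in CTRL libraries of KMS-12-PE. In MM1R it was 6756 to 6844 TPM in siIRF4 and 7131 to 7291 TPM in CTRL libraries. Not every marker fell in each line. MZB1, the highest of them, averaged 3563 TPM in siIRF4 and 3093 TPM in CTRL cells of MM1R. In MM1S it averaged 2610 TPM in siIRF4 and 2486 TPM in CTRL cells. A subtraction added after the data were seen removed the mean MM1 profile from the KMS-12 libraries, scaled as if all of their ITGB7 were RNA of the MM1 lines, which was not tested. The KMS-12-PE changes were then -0.97 for SELPLG, 1.04 for ITGAL, -0.63 for ITGA4, 0.48 for ICAM1, 0.48 for ICAM3, 0.39 for ICAM2 and 0.47 for ITGB2, all past the test. Those of CD44 (-0.04) and ITGB1 (-0.00) did not pass it, with CD44 at -0.10 before the subtraction.

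The effect of siIRF4 differed among the lines for 7 of the 9 genes by a limma F test over the differences between lines, which 53.3% of all genes passed. ITGB1 (adjusted p = 0.087) and ITGB2 (0.14) did not pass. Between KMS-12-PE and KMS-12-BM, 6 of 9 differed (23% of all genes, 7.11% with the higher and 15.9% with the lower change in KMS-12-PE): ITGAL, ICAM1, ICAM2 and ICAM3 had the higher change in KMS-12-PE, and ITGA4 and SELPLG the lower. The ICAM3 difference was 0.30 ± 0.061 (adjusted p = 0.0014). ITGB2, with a difference of 0.45 (adjusted p = 0.15), did not pass, and passed with voom on recovered reads (2.32, 0.016), with separate fits (0.45, 0.0071) and with a pseudocount of 0.1 (1.63, 0.04999), on the low reads given above. Between the KMS-12 lines and the MM1 lines, 4 of 9 differed (44.9% of all genes, 20% with the higher and 25% with the lower change in the KMS-12 lines), each with the lower change in the KMS-12 lines. Between MM1S and MM1R, 0 of 9 differed (2.47% of all genes), the nearest being ICAM1 with a difference of 0.29 ± 0.087 (95% interval 0.11 to 0.48, adjusted p = 0.076). At an unadjusted p under 0.05 the count for that pair was 4. The share of all genes at that threshold was not counted, so the 4 cannot be set beside the 2.47%. The limma test with median-of-ratios scaling called ICAM1 alone (0.27). On recovered reads it called ICAM1 (0.31) and CD44 (-0.17).

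The other integrin subunits were measured as a list of 22 genes, of which 12 were tested. On average 4 fell and none rose, where 33.1% of all genes were higher and 26.5% lower, with a median change of -0.07 beside 0.02 for all genes. In KMS-12-PE 9 of the 12 fell, where 22.2% of all genes did, with a median of -0.37 beside -0.02. ITGB7 changed by -0.53 ± 0.14 on average and by -2.51 ± 0.28 in KMS-12-PE, the only line where its mean fell. Its mean was higher with siIRF4 by 16.9% in MM1R and by 9.39% in MM1S. In KMS-12-BM it was higher by 17.9%, with overlapping groups and the single siIRF4 library that stood apart. ITGA6, an alpha chain of laminin receptors, changed by -0.52 ± 0.045 on average. It had 18.3 TPM in siIRF4 and 27.7 TPM in CTRL cells of MM1R, and 16.7 TPM in siIRF4 and 26.7 TPM in CTRL cells of MM1S. ITGB8 changed by -0.37 ± 0.047. In KMS-12-PE both were low, ITGA6 at 1.10 TPM in siIRF4 and 2.96 TPM in CTRL cells and ITGB8 at 0.34 and 0.75 TPM. CTRL cells of MM1R had more of both, with ITGB8 at 3.94 TPM. All of the lower calls in KMS-12-PE stood in the libraries whose stromal, myeloid and epithelial sums were also lower, though EPCAM was not. ITGB7 as a share of the mean MM1 level was lower in these libraries too, at 0.07% to 0.083% against 0.42% to 0.59% in CTRL. The part of RNA of other cells or of the MM1 lines was not tested.

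Genes that control integrin activation from inside the cell, activators and inhibitors together, moved in both directions. On average 9 of the 16 tested (of 17 listed) were higher and 5 lower, beside 33.1% higher and 26.5% lower of all genes, with a median of 0.10. APBB1IP, which encodes the RAP1 adaptor RIAM, changed by 0.35 ± 0.065, RASGRP2, which encodes an exchange factor for RAP1, by 0.33 ± 0.069, and CYTH1, whose product binds the tail of the LFA-1 beta chain, by 0.26 ± 0.023. FERMT2, a kindlin gene whose product helps activate integrins, changed by -0.18 ± 0.072. FLNA, a filamin that competes with the activator talin at integrin tails, changed by -0.22 ± 0.040, and ITGB1BP1, which encodes the ITGB1 inhibitor ICAP-1, by -0.12 ± 0.018. The mean of FLNA fell only in the MM1 lines, to 89.9 from 127 TPM in MM1R and to 79.5 from 110 TPM in MM1S. With siIRF4 it was 271 TPM in KMS-12-BM and 197 TPM in KMS-12-PE, against 264 and 192 TPM in CTRL. Genes of integrin signalling and of the link to the cytoskeleton had 6 of 13 tested (of 15) higher and 3 lower on average, together near the 59.6% of all genes that passed, with a median of 0.07. LPXN, which encodes the paxillin relative leupaxin of leukocytes, had 152 TPM in siIRF4 and 52.5 TPM in CTRL cells of KMS-12-PE, and rose in all 4 lines (0.61 ± 0.024 on average). PARVG, a parvin gene of blood cells (0.64 ± 0.052), and ILK, the integrin-linked kinase (0.40 ± 0.023), also rose in all 4 lines, while NEDD9 (-0.30 ± 0.040), CRK (-0.16 ± 0.023) and CRKL (-0.11 ± 0.025) fell on average. The genes of the ezrin family, which tie the tails of CD44, ICAM and PSGL-1 proteins to actin, changed little: MSN by 0.12 ± 0.018, EZR by -0.08 ± 0.020 and RDX by -0.12 ± 0.026, all 3 past the test.

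**Figure D4:**
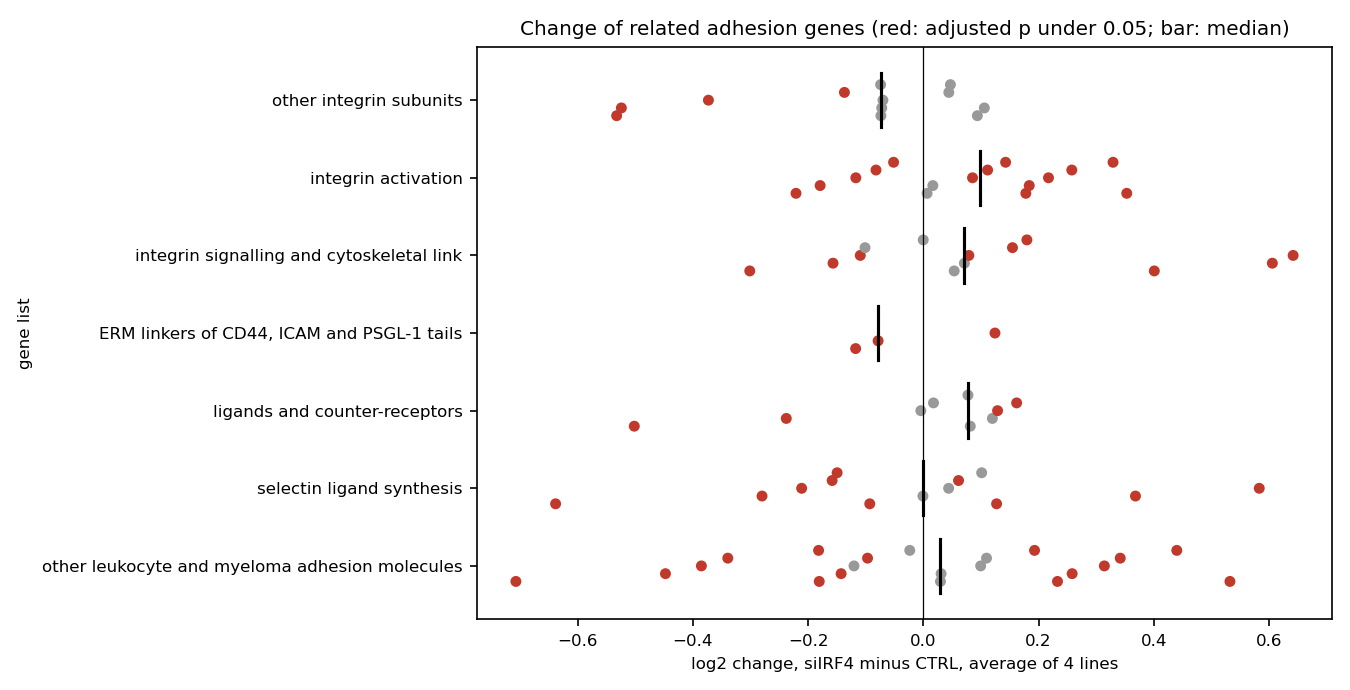
Change of the tested genes of 7 lists with siIRF4, siIRF4 minus CTRL on the log2(TPM + 1) scale averaged over the 4 lines, with a point per gene, red where the limma adjusted p is under 0.05, and a bar at the list's median. The medians lie between -0.08 and 0.10.

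The ligands and counter-receptors of these proteins had 2 of 9 tested (of 15) higher and 2 lower on average, beside 33.1% higher and 26.5% lower of all genes, with a median of 0.08. F11R, a junctional adhesion molecule that LFA-1 can bind, changed by 0.16 ± 0.035, and HAS3, a hyaluronan synthase, by 0.13 ± 0.046. FN1, fibronectin and so a ligand of VLA-4, changed by -0.50 ± 0.082, and JAM3 by -0.24 ± 0.044. FN1 in KMS-12-PE was 14.5 TPM in siIRF4 and 39.8 TPM in CTRL cells, in the libraries with the lower stromal sum.

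The enzymes that fit PSGL-1 for selectins showed large changes in single lines. Of 14 listed, 13 were tested, 4 higher and 6 lower on average with a median of 0.00, beside 33.1% higher and 26.5% lower of all genes. FUT7, a fucosyltransferase needed for selectin ligands, was 51.5 TPM in siIRF4 and 15.4 TPM in CTRL cells of KMS-12-BM, a change of 1.68 ± 0.096 (limma adjusted p = 1.0e-10), and under 1 TPM in the other lines. ST3GAL6, a sialyltransferase, was 4.17 TPM in siIRF4 and 22.5 TPM in CTRL cells of KMS-12-PE, a change of -2.18 ± 0.12 (adjusted p = 1.3e-11), in the line where SELPLG fell most. GCNT1, which starts the branched sugars of PSGL-1, changed by 0.37 ± 0.048 on average and TPST2, a tyrosine sulfotransferase, by 0.13 ± 0.029. C1GALT1 (-0.28 ± 0.028) and ST3GAL4 (-0.21 ± 0.051) fell on average.

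Among 21 tested (of 24 listed) other adhesion genes of leukocytes and myeloma, 7 were higher and 8 lower on average, beside 33.1% higher and 26.5% lower of all genes, with a median of 0.03. MCAM (0.53 ± 0.052), PVRL1 (0.44 ± 0.030) and SPN, which encodes CD43 (0.34 ± 0.055), rose most on average. ST8SIA2, a polysialyltransferase whose known substrate is the NCAM1 protein, fell most (-0.71 ± 0.047). It was 5.62 TPM in siIRF4 and 15.7 TPM in CTRL cells of MM1R, and 3.73 TPM in siIRF4 and 12.3 TPM in CTRL cells of MM1S, with changes of -1.34 ± 0.094 (limma adjusted p = 4.0e-10) and -1.50 ± 0.094 (5.4e-11). CD58, the ligand of the T and NK cell receptor CD2, fell in MM1R (-0.51), MM1S (-0.55) and KMS-12-PE (-0.64), and had a change of -0.08 in KMS-12-BM that did not pass the test. PECAM1 changed by -0.39 ± 0.042 on average.

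Across the 24 libraries, the genes whose levels followed those of the adhesion genes most closely were named among 9770 genes tested with a mean of at least 5 TPM, by Pearson's r of log2(TPM + 1). SELPLG was followed by CSF2RB (r = 0.998), SEC11C (0.995) and KDELC1 (0.995), and CD44 by DENND1B (0.998), MZB1 (0.997) and LMO4 (0.997). ITGB2 was followed by PDE9A, FAM9B and CDKN2C (0.997 each), ITGAL by PSAP (0.994), CYFIP2 (0.992) and RAC2 (0.991), and ITGB1 by TSSC1 (0.992), THY1 (0.991) and LRIF1 (0.990). ITGA4 was followed by SENP5 (0.986), PGRMC2 (0.985) and G3BP2 (0.985), ICAM2 by NDUFA7 (0.989), ADCY3 (0.983) and DUS1L (0.982), and ICAM3 by SUMF2 (0.984), LINGO3 (0.972) and SLC43A2 (0.971). ICAM1 had the loosest companions, ZNF358 (0.949), C11orf71 (0.931) and RBM4 (0.928). The 24 points share 4 lines, and the values describe mainly the order of the lines.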

How the data were processed

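Total RNA libraries (NEBNext Ultra II, per the labels' protocols) of 4 myeloma cell lines, 3 siIRF4 and 3 CTRL in each, were available as 1 table of gene levels. The deposited values are TPM, made by the authors, with 25370 rows and 1 column per library. The submitters' processing notes name STAR, featureCounts, FastQC, MultiQC and the build hg19; versions, annotation, gene lengths and strand setting: not given in the sources used here. The 28 rows whose symbols had become dates and 1 row with no name (at most 0.147% of a library's TPM) were left out.

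Genes at 1 TPM or more in 3 or more libraries were tested as log2(TPM + 1), in 1 fit of 8 group means over all 24 libraries with limma 3.58.1 (R 4.3.3, trended and robust eBayes). The test was two-sided, and Benjamini-Hochberg adjusted p-values under 0.05 over all genes tested were called. Changes are siIRF4 minus CTRL with the SE from limma, differences between lines are interaction contrasts, and means are given with the SD of 3 libraries. Adding 1 TPM shrinks the change of a gene whose level is near 1 TPM. The fit was tested on simulated data with known changes.

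Since each library's TPM values within a gene are whole reads times a constant, reads were recovered for 20484 genes (tolerance 0.02 reads, a value in at least 6 libraries) that cover at least 99.96% of each library's TPM, and used for depth and for an alternative test with voom. Intervals cover the spread between libraries, and read totals show counting limits.

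The members, the 7 lists of related genes and the marker lists were chosen with earlier results of these data known. Named beside the 10 genes were IRF4, ITGB7, any marker, up to 3 called genes of each list that rose most and up to 3 that fell most on average, and the 3 genes most like each gene in pattern whose group means ranged over at least 1 on the log2 scale. CD58 and ST8SIA2 fall under that rule. The alternatives were separate fits, voom on recovered reads, a replicate block, no filter on low values, a filter at a mean of 5 TPM, a pseudocount of 0.1, scaling by median of ratios, a prior without trend and each library left out. Added after the data were seen was the subtraction of the ITGB7 share of the mean MM1 profile. Promoters are from RefSeq (GRCh38.p14), a build other than that of the files, and were matched by symbol. Python 3.11.15, numpy 2.4.6, pandas 2.3.3 and matplotlib 3.10.9 were used.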

Additional observations from a re-analysis of the deposited data

Results flagged for a closer look

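Differences of the siIRF4 effect between lines that passed the limma interaction test are listed here as log2(TPM + 1) values, each the effect in the line named first minus that in the line named second. Between KMS-12-PE and KMS-12-BM, the difference was -0.75 for ITGA4, 0.80 for ITGAL, 0.65 for ICAM1, 0.75 for ICAM2, 0.30 for ICAM3 and -0.90 for SELPLG (adjusted p = 7.4e-07, 1.1e-07, 1.5e-05, 8.6e-06, 0.0014 and 1.1e-09). Within KMS-12-PE, all 3 siIRF4 libraries lay beyond its CTRL libraries on the side given by the sign, which does not compare the lines. KMS-12-BM siIRF4 libraries also lay on that side of their CTRL libraries for ITGAL, ICAM3 and SELPLG, with mean changes of 12.8%, 13.4% and -8.8%. Between the mean of the KMS-12 lines and that of the MM1 lines, the difference was -0.48 for ICAM1, -0.21 for ICAM3, -0.65 for SELPLG and -0.17 for CD44 (adjusted p = 1.9e-06, 0.00051, 1.6e-10 and 0.0037). The effects within the KMS-12 pair are themselves far apart for ICAM1, ICAM3 and SELPLG, so their mean describes neither line.

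The loss of IRF4 itself differed between lines. The difference was -0.62 between MM1S and MM1R (adjusted p = 0.00091), -0.37 between KMS-12-PE and KMS-12-BM (0.0067) and -0.19 between the KMS-12 lines and the MM1 lines (0.027). The last was lost when any of 5 libraries was left out (highest adjusted p = 0.055). For the beta chain ITGB7, the difference was -2.53 between KMS-12-PE and KMS-12-BM (adjusted p = 0.00021) and -1.42 between the KMS-12 lines and the MM1 lines (0.00047). Over the libraries left out in turn it lay between -2.83 and -2.00 for the KMS-12 pair and between -1.68 and -1.27 for the second contrast. The part of the unequal loss of IRF4 in the differences of the adhesion genes was not tested.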

How the results depend on the processing

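Alternatives other than leaving out a library were counted for the 9 tested genes and NCAM1 together. Of these values, 1106 were counted as unchanged, 16 passed the threshold newly, 7 no longer passed it and 1 reversed. For the tested genes a change of direction was counted only where the main or the alternative value passed the threshold. The unchanged values therefore include some of the other sign, as for ITGB2 in MM1R, which lay between -0.33 and 0.21 over all alternatives. NCAM1 entered only with no filter. It had no main test, so its values were counted as unchanged by their size alone. Of those with a library left out, 2985 were counted as unchanged by the same rule, 23 passed newly and 16 no longer passed. The number of genes called in KMS-12-BM lay between 2 and 5 with a library left out, and was 4 with all. The number that differed between MM1S and MM1R lay between 0 and 1 with a library left out (1 without MM1S CTRL replicate 3 or KMS-12-PE CTRL replicate 3), and was 1 with median-of-ratios scaling and 2 with voom on recovered reads. ICAM3 in CTRL of MM1S against CTRL of KMS-12-PE reversed with median-of-ratios scaling (0.094, limma adjusted p = 0.050). ITGB7 in KMS-12-BM reversed without siIRF4 replicate 1 (-0.50, adjusted p = 0.0030), and lay between -0.50 and 0.33 over the libraries left out. The causes were not tested. Over all genes, 2650 were called in KMS-12-BM and 1766 without that library. For MM1S against MM1R, 374 were called, 171 with a pseudocount of 0.1, 243 with separate fits, 575 with voom on recovered reads and 215 to 248 without MM1R siIRF4 replicate 2 or 3, MM1R CTRL replicate 3 or MM1S CTRL replicate 2. With no filter, NCAM1 was called lower in MM1S and on average (-0.20, adjusted p = 0.0054). Median-of-ratios scaling moved the median of all genes by less than 0.1 in each siIRF4 comparison.

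Libraries with the same replicate number did not deviate together, with correlations of -0.16 to 0.06 over 9413 genes, so the numbers were not taken as pairs. With replicate number as a block, 3 adhesion genes were called in KMS-12-BM, 6 in KMS-12-PE, 5 in MM1R, 5 in MM1S and 6 on average. Of all 15113 genes tested, 2415, 5510, 6808, 7462 and 8832 were called, in the same order. The effect then differed among the lines for 8 adhesion genes and for 7503 of all genes. Without the block it did so for 7 or 8 adhesion genes with a library left out. With all libraries it did so for 7, where 53.3% of all genes passed. With the block, 183 of all genes differed between MM1S and MM1R. The calls of ITGAL in KMS-12-BM (adjusted p = 0.050) and ITGB2 in KMS-12-PE (0.090) no longer passed. Depth limits ITGB2 outside KMS-12-BM and NCAM1, which rest on 1 to 222 reads a group.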

Other observations

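ST8SIA4, the other polysialyltransferase of the NCAM1 protein, had 38.4 TPM in siIRF4 and 31.1 TPM in CTRL cells of MM1R and 41.7 TPM in siIRF4 and 30.03 TPM in CTRL cells of MM1S. It rose in both, by 0.30 ± 0.080 and 0.46 ± 0.080 on the log2(TPM + 1) scale (SE, limma adjusted p = 0.0039 and 5.5e-05), where ST8SIA2 fell. It was picked after its values were seen.

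RASGRP2, an activator of RAP1 upstream of LFA-1, was 159 TPM in siIRF4 and 142 TPM in CTRL cells of KMS-12-BM, the line with ITGB2 transcripts. It was at most 4.41 TPM on average in any group of the other lines.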
